A study of Mus musculus with 6 samples.

Results

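The 82 genes described here encode the proteins of the cytosolic ribosome in the mouse, 31 of the small subunit (Rps genes and Rpsa) and 51 of the large subunit (Rpl genes and the stalk genes Rplp0, Rplp1 and Rplp2). They were taken by symbol from the 52636 genes of the count table: protein-coding genes named Rps or Rpl with a number and an optional a, l, x or l1 ending, together with Rplp0, Rplp1, Rplp2 and Rpsa. Rpl32l, Rpl6l, Rps12l1 and Rps4l have symbols of this form but are annotated as pseudogenes and were left out. All 82 genes had counts, the fewest being 48 molecules of Rpl3l, and they lie on 19 chromosomes, with 14 of them on chromosome 7.

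RNA was counted in 25428 cells cultured for a week from the RPE (the pigmented epithelium beneath the retina) and choroid (the vascular layer behind it) of male C57BL/6J mice of 12 to 16 months. The groups were 3 Dram2 wt/wt samples and 3 Dram2 ko/ko samples, in which exon 4 of Dram2, a lysosomal membrane protein gene, had been removed in the germ line with CRISPR/Cas9. The deletion was present in every cell type and throughout life, and whether each sample came from a separate animal or culture was not stated, so p-values measure the spread between these samples, which may be technical. Libraries were made with 10x Genomics 3′ chemistry, which counts molecules near the 3′ end by unique molecular identifiers (UMIs).

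Samples held from 96808998 to 122746184 UMIs each. Dram2 ko/ko replicate 3 was the only sample of batch 2, so within Dram2 ko/ko that batch and that sample cannot be told apart. Dram2 itself was at 33.4, 39.6 and 38.1 CPM (a gene's UMIs scaled by the total UMIs of the sum) in Dram2 wt/wt against 30.7, 28.3 and 30.1 CPM in Dram2 ko/ko, a log2 difference of -0.30 (voom-limma, Benjamini-Hochberg adjusted p 0.301), and reads at its 3′ end lie outside the deleted exon, so they check little. Of 8 deposited cell types, those annotated RPE, Endothelial, Myeloid and Fibroblast proliferating held the highest level of 8 of 12, 6 of 6, 6 of 6 and 4 of 5 markers of their name. In RPE cells most of the 828 CPM of the RPE list lay in Krt18 (710 CPM) and Otx2 (87.4 CPM). Each other marker of that list was at 8.92 CPM or less, with Rpe65 at 0.693 CPM. Cells annotated Pericyte held the highest level of 1 of 7 pericyte markers, with 3 of the 7 at 0, and the highest level of Schwann cell markers such as Sox10 (179 CPM, against at most 3.11 CPM in the other types) and Ngfr (407 CPM, against at most 0.636 CPM), so the data go against that name. Of 8 fibroblast markers, 1, 3, 2 and 0 were highest in Fibroblast, Fibroblast 2, Fibroblast proliferating and Fibroblast-like cells and 2 in cells annotated Pericyte, and their summed level was 2497 CPM in Fibroblast-like against 5220 CPM in Fibroblast cells and 5857 CPM in cells annotated Pericyte. Over whole samples, the summed level of each of the 10 marker lists overlapped between genotypes, such as 25.1 to 62.1 CPM against 28.4 to 52.8 CPM for the RPE list.

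Ribosomal proteins bind ribosomal RNA in the nucleolus and form the small subunit, which decodes mRNA, and the large subunit, which joins amino acids. Most are needed in about equal amount, and their mRNAs begin with a C followed by a stretch of C and T (the 5′ terminal oligopyrimidine, or TOP, motif). Through this motif, growth signalling by mTOR and the RNA-binding protein Larp1 controls their translation and stability. Many members have processed pseudogenes, copies of the mRNA inserted elsewhere in the genome, and several have a paralog with a tissue-restricted level.

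The start of a TOP mRNA carries the motif, so the 30 bases around annotated starts (15 before and 15 from the first base) were read from RefSeq promoters of GRCm38.p6 for members called lower in Dram2 ko/ko below and, beside them, for 3 members that were not called. Rpl30 and Rps20 are not in that table. Capitals mark the longest run of C and T in each window, read on the strand of the gene. Rpl35a has 3 annotated starts, and the window shown is the one with the longest run (13 bases), the others having runs of 5 and 4. The first 6 are the called members, at chr3:28805493-28805522 (+), chr10:128549154-128549183 (-), chrX:37085208-37085237 (-), chr16:33056467-33056496 (+), chr7:141447636-141447665 (+) and chr2:39005117-39005146 (-). The last 3 are Rps6 at chr4:86857353-86857382 (-), Rplp0 at chr5:115559452-115559481 (+) and Rps2 at chr17:24720048-24720077 (+).
Rpl22l1: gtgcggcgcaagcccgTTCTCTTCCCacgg
Rpl41: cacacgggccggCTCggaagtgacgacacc
Rpl39: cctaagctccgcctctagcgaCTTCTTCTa
Rpl35a: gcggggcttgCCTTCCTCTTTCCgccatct
Rplp2: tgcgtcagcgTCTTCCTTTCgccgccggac
Rpl35: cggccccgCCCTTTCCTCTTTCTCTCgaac
Rps6: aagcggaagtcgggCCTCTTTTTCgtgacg
Rplp0: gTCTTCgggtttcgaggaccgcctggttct
Rps2: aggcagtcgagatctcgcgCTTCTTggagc

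A window was held for 62 members, in 74 windows, since some genes have several starts. A run of 8 or more C and T was found in 27 of the 62 (43.5%), against 3760 of 27025 genes with a window (13.9%). Both kinds of start occur among the members that were lower in Dram2 ko/ko: Rpl35 has a run of 18 bases and Rpl41 a run of 3. The median log2 difference between genotypes over whole samples was -0.34 for the 27 members with such a run and -0.22 for the 34 tested members without one. A run in the window is a description of letters, and its absence says only that these bases do not hold one.

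The members together made up 2.98% of all UMIs, and 453 pseudogenes of members made up another 0.737%. The level of a member was not even: 16 members at 500 CPM or more held 85.3% of the members' UMIs, 12 lay at 100 to 500 CPM, and 54 lay under 100 CPM, with a median of 51.7 CPM. Among the members of high level were Rpl8, a protein of the large subunit, at 3195 CPM and Rps3, at the mRNA entry of the small subunit, at 3166 CPM. Rplp1, which with Rplp2 forms the acidic dimers of the stalk, stood at 3093 CPM. Rps6, whose protein is the classical target of S6 kinase, stood at 5.06 CPM. Only Rpl10l at 0.304 CPM and Rpl3l, the paralog of striated muscle, at 0.0721 CPM were lower.

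**Figure D1:**
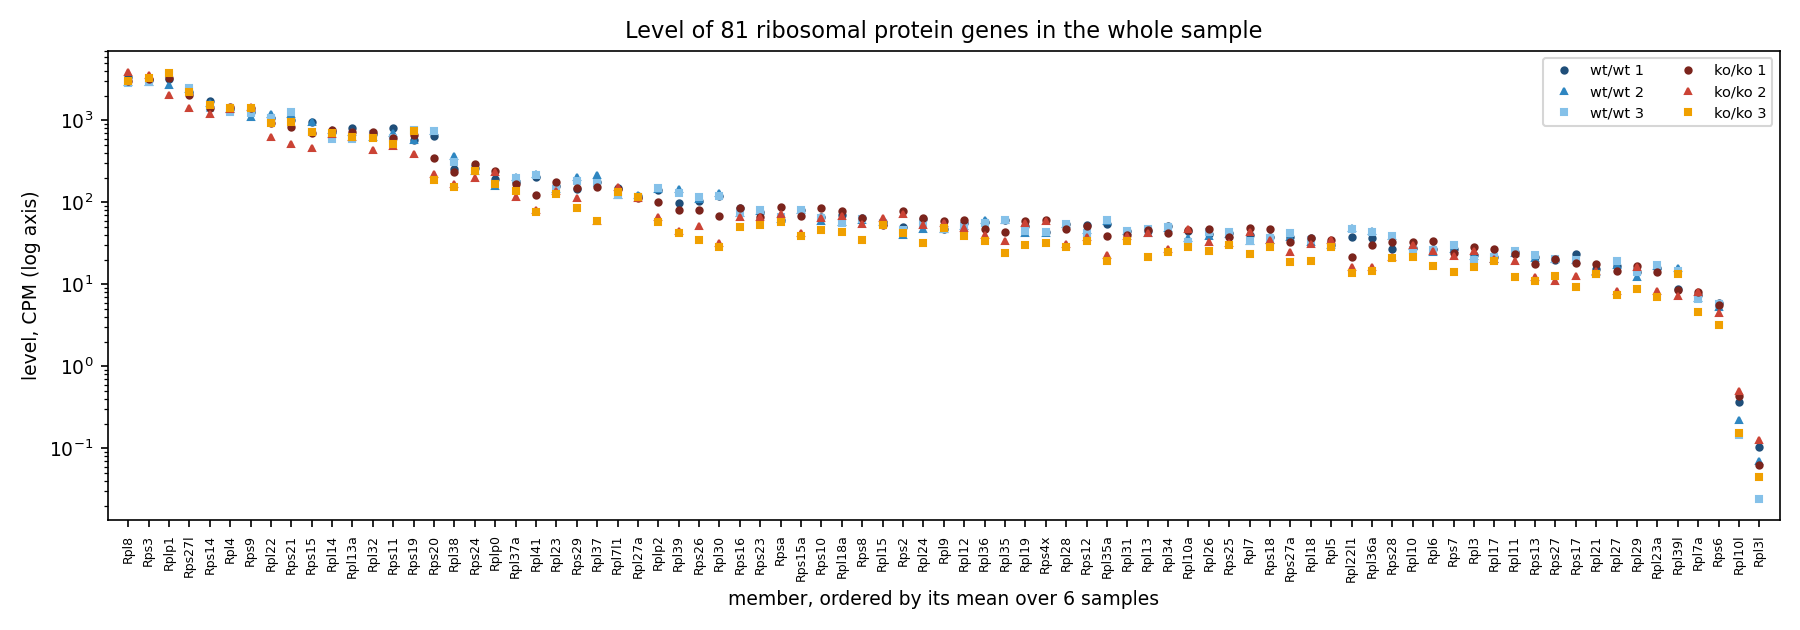
Level of 81 of the 82 ribosomal protein genes in whole samples (CPM, log axis), 1 symbol per sample, with genes ordered by their mean. Rpl8 at 3195 CPM and Rpl3l at 0.0721 CPM are the ends of the range shown, and 54 genes lie under 100 CPM.

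The range has to be read with the sequence the genes share. Over the last 400 bases of its transcripts, the median member had 36.4% of its 31-base words in another gene, against 0.263% for the median of 21735 other protein-coding genes. At the cut of 5% or more were 78 of 82 members and 34.0% of the other genes. Reads that fit several genes are not given to any of them by a counter that keeps uniquely assigned reads. The levels of the 78, such as the low Rps6 (62.1% shared) and the high Rplp1 (71.1%), are thus uncertain. They cannot be set against each other as amounts of mRNA. Across the 82 genes, which are not independent, Spearman's rho between the level in CPM and the shared percentage was -0.21. Since a 3′ library counts 1 end per molecule, levels were not divided by gene length.

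By cell type, the summed share of the members was highest in Fibroblast-like cells and lowest in Endothelial cells. It was 4.31% ± 0.326 (SD, n = 6) of UMIs in Fibroblast-like cells, 3.27% ± 0.273 in RPE cells and 2.26% ± 0.200 in Endothelial cells. Fibroblast, Fibroblast proliferating and Fibroblast 2 cells lay between 2.91% and 2.97%, and the mean differences among these 3 within a sample were smaller than their SD. Fibroblast exceeded Fibroblast 2 cells by 0.0592 percentage points (SD 0.0810) in 4 of 6 samples. They exceeded Fibroblast proliferating cells by 0.0512 (SD 0.0519) in 5 of 6. Cells annotated Pericyte were at 2.74% and Myeloid cells at 2.55%, the latter in the 4 samples with 10 or more such cells. Fibroblast-like cells exceeded each other type within every sample, by 1.04 percentage points over RPE cells (SD over 6 samples 0.165) and by 1.34 over Fibroblast cells (SD 0.226). Among cells with 500 or more genes and at most 20% mitochondrial UMIs these gaps were 1.84 and 2.14 percentage points, again in every sample. RPE cells exceeded Fibroblast cells in 6 of 6 samples, and Endothelial cells were below Fibroblast cells in 6 of 6. These types came from clustering the same counts, so the order is described and not tested. In sums over cells, fewer molecules per cell and fewer cells cannot be told apart, and a share says nothing on the amount per cell.

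**Figure D2:**
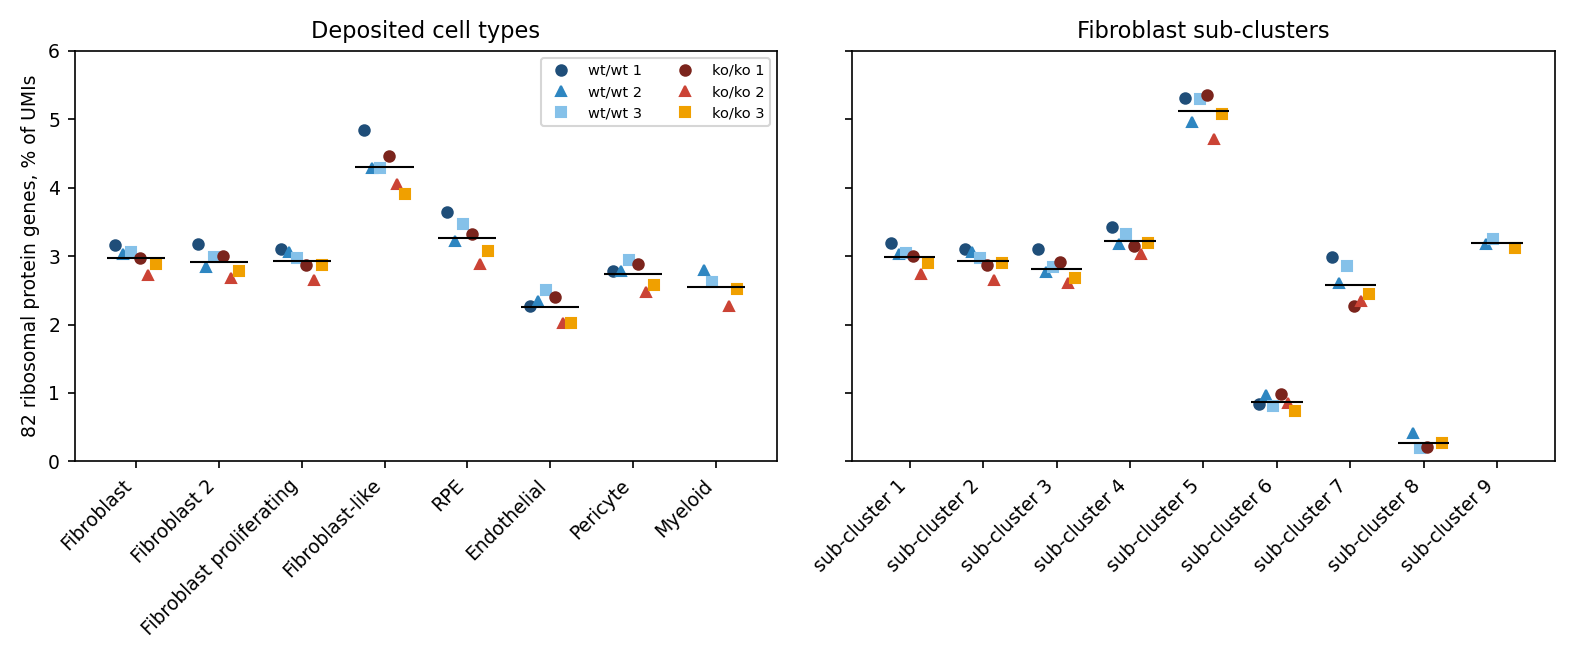
Summed share of the 82 ribosomal protein genes as percent of UMIs (vertical axis) in each cell type and fibroblast sub-cluster, 1 symbol per sample coloured by genotype, with a line at the mean. Fibroblast-like cells and sub-cluster 5 lie above the other groups in every sample, and sub-clusters 6 and 8 lie below them.

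The fibroblast sub-clusters spread further than the cell types. Sub-cluster 5, which holds 763 of the 1121 Fibroblast-like cells, had a share of 5.12% ± 0.251 (n = 6), and sub-cluster 1, the main body of Fibroblast cells, 2.99% ± 0.153. The share in sub-cluster 5 was higher in all 6 samples, by 2.13 percentage points (SD 0.166). Its cells were small in counts, with a median of 5853 UMIs per cell against 33902 in sub-cluster 1, and held 352 UMIs of the members per cell against 1037. Depth thus differed between these sub-clusters along with the share, and its part was not tested. Sub-clusters 6 and 8 stood at the other end with shares of 0.867% ± 0.0956 (n = 6) and 0.274% ± 0.0969 (n = 4). Their cells were also small in counts, with sample medians of 3752 to 8934 and 2929.5 to 3214 UMIs per cell. Mitochondrial transcripts took 18.7% to 22.3% of UMIs over the samples of sub-cluster 6 and a mean of 88.0% in sub-cluster 8, against 3.02% in sub-cluster 1, and their part in these low shares was not tested beyond a change of denominator: relative to non-mitochondrial UMIs the shares were 1.08% and 2.24%. Fibroblast-like cells were a mixture of these, with 763 cells in sub-cluster 5, 168 in sub-cluster 6 and 168 in sub-cluster 8.

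Most members shared the order of the sum. The highest mean level was in Fibroblast-like cells for 62 of 82 members and in RPE cells for 15, and the lowest was in Endothelial cells for 46 and in Myeloid cells for 26. Against Fibroblast cells of the same sample, 60 of 82 members were higher in Fibroblast-like cells in every sample and 1 was lower in every sample. Of 8094 other protein-coding genes with a mean of 10 CPM or more in Fibroblast cells, 11.3% were higher and 60.3% were lower in every sample. This cut was not set for the members, and for sub-clusters it was taken in sub-cluster 1. The median log2 ratio of the members was 0.51 and that of the other genes -0.65. In RPE cells 44 members were higher in every sample (other genes 22.1%), and in Endothelial cells 49 were lower (other genes 25.4%). In sub-cluster 5, 70 members were higher than in sub-cluster 1 in every sample (other genes 17.8%), led by Rps26, a small subunit protein at the mRNA exit, with a log2 ratio of 1.08 (178 against 83.5 CPM). In sub-cluster 6, 61 members were lower in every sample (other genes 41.2%), from Rps27l at a log2 ratio of -2.52 (384 against 2201 CPM) upward, and Rpl10 was the highest, with 58.6 against 26.9 CPM. In sub-cluster 8 all 82 were lower, as were 95.6% of the other genes.

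Among members with a mean of 10 CPM or more, the ratio of the highest to the lowest cell type was smallest for Rpl13 (1.38), Rpl10 (1.49), which lies near the peptidyl transferase centre, and Rps13 (1.54). It was largest for Rpl22l1 (3.19), Rpl10a (2.92), Rpl31 (2.88), Rpl21 (2.74) and Rpl13a (2.65). Rpl31, which sits near the peptide exit tunnel, was highest in RPE cells at 73.9 CPM ± 14.3 (n = 6) and lowest in Endothelial cells at 25.7 ± 7.95. Rpl10a had a mean of 57.4 CPM in Fibroblast-like cells, with samples from 28.4 to 85.4, and of 19.7 ± 7.07 in Endothelial cells. Rpl21 ranged from 23.0 CPM ± 4.41 in Fibroblast-like cells to 8.39 ± 2.68 in Myeloid cells (n = 4). Rpl13a, which is also known from the interferon-gamma translation checkpoint, ranged from 1122 CPM ± 189 in Fibroblast-like cells to 423 ± 59.4 in Myeloid cells (n = 4). The Rpl31 levels in RPE and Endothelial cells did not overlap over samples, nor did those of Rpl10a, Rpl21 and Rpl13a in their highest and lowest types. These members and types were picked for their large gap, so the lack of overlap is a description and no test.

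Of the paralogs, Rpl22l1 and Rpl39l took unequal shares of their pairs over cell types. Rpl22l1, which can take the place of Rpl22, was highest in cells annotated Pericyte at 62.4 CPM ± 38.5 and lowest in Fibroblast 2 cells at 19.6 ± 8.76, and it made up 6.45% of the summed Rpl22 and Rpl22l1 UMIs in the former and 4.36% in Fibroblast proliferating cells, against 1.98% in Fibroblast 2 cells. In cells annotated Pericyte it was at 90.2, 76.4 and 116 CPM in Dram2 wt/wt against 36.3, 42.8 and 12.4 CPM in Dram2 ko/ko, so the SD over all 6 spans genotypes that do not overlap (adjusted p 0.217, voom-limma). Rpl39l, best known from the testis, was at 20.2 CPM ± 10.3 in Fibroblast-like cells and 11.5 ± 3.48 in Fibroblast cells, but at 1.85 ± 1.64 in RPE cells and 0.520 ± 0.961 in cells annotated Pericyte (3 UMIs in all 6 samples together). Rpl39 showed no such gap, with 129 CPM ± 56.2 in RPE cells, 78.6 ± 44.0 in cells annotated Pericyte and 90.6 ± 42.3 in Fibroblast cells. Rpl39l thus made up 12.5% of the pair in Fibroblast cells and 1.56% in RPE cells, and the highest RPE sample (3.01%) lay below the lowest Fibroblast sample (8.12%). Rps27l, a target of p53, held 99.2% of the UMIs of its pair with Rps27, and Rpl7l1, a nucleolar paralog, 79.0% of the pair with Rpl7. Rpl10l and Rpl3l, on 200 and 48 UMIs, held 1.04% and 0.314% of theirs. With 34.5% of the Rps27 and 22.8% of the Rps27l sequence shared with other genes, these ratios are between counted UMIs and not between mRNAs.

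The 5 genes outside the list whose level over 46 sums of cell type and sample was most like the members' summed level (Pearson correlation of log2 CPM, 8538 protein-coding genes of 10 CPM or more compared) were Gm10073 (0.89), Txn1 (0.88), Nme2 (0.85), S100a11 (0.85) and Calm3 (0.84). The sums share libraries and depth, and the correlations are given as a description.

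The second question was whether the members differed between Dram2 genotypes. Over all cells the members took 3.16%, 3.05% and 3.05% of UMIs in the wild-type (Dram2 wt/wt) replicates 1, 2 and 3, against 2.99%, 2.70% and 2.91% in those of Dram2 ko/ko. All samples of Dram2 ko/ko lay below those of Dram2 wt/wt, by 0.222 percentage points between the means, and Dram2 ko/ko replicate 2 was the lowest. The genotypes also did not overlap in Fibroblast (-0.223), Fibroblast proliferating (-0.249) and Myeloid (-0.327, 2 samples against 2) cells. They overlapped in Fibroblast 2, Fibroblast-like, RPE, Endothelial and cells annotated Pericyte, where the mean was lower in Dram2 ko/ko by 0.174 to 0.348 percentage points. No p is given for this sum. The sum holds 78 members with 5% or more shared sequence, whose counts are uncertain. Over the 4 members under 5% shared, the difference was 0.0340 percentage points in the other direction. That smaller sum rests mainly on 1 of them, so it cannot show the part of shared sequence in the difference. In the smaller sum the genotypes overlapped, with 0.333% to 0.385% of UMIs in Dram2 wt/wt against 0.355% to 0.438% in Dram2 ko/ko. Mitochondrial transcripts took 3.12% ± 0.507 and 3.14% ± 0.396 of UMIs in the genotypes, and these overlapped. In Myeloid cells they did not, with means of 3.22% in Dram2 wt/wt against 2.48% in Dram2 ko/ko. Depth per cell overlapped too, with medians of 24042 to 29819 UMIs in Dram2 wt/wt against 47373, 16453 and 27961 in Dram2 ko/ko. Replicate 2 of Dram2 ko/ko thus had both the fewest UMIs per cell and the lowest share of the members, and the part of depth was not tested.

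Gene by gene, the members did not shift as 1 block, and 57 of the 81 tested (70.4%) had a log2 difference below 0, against 49.0% of all genes. Of 81 members tested over whole samples, none was called at an adjusted p under 0.05 (voom-limma, Benjamini-Hochberg over 22580 genes, of which 0% were called). At an unadjusted p under 0.05, 35 were lower and 1 was higher in Dram2 ko/ko, against 5.67% and 1.34% of all genes. By DESeq2 16 members were called, against 1.74% of all genes, and by the edgeR quasi-likelihood test 0, against 0%. Leaving out Dram2 ko/ko replicate 1 gave 19 calls by voom-limma, against 1.05% of all genes, and leaving out its replicate 3 gave 7, against 0.507%. Without any one of the other 4 samples 0 members were called, against at most 0.00435% of all genes. The median log2 difference was -0.24 for the members and 0.00 for all genes. The members' median was -0.37 without replicate 1 of Dram2 ko/ko and -0.11 without its replicate 3. In 30 members all samples of Dram2 ko/ko lay below those of Dram2 wt/wt, against 7.33% of all genes tested, and in 4 (Rps9, Rps3, Rpl4 and Rpl9) all lay above, against 4.2%. The members above were thus near the share of all genes. These 4 were named after their values were seen, with log2 differences of 0.25, 0.19, 0.11 and 0.22.

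The lowest log2 differences were large. Rpl30, which lies where the subunits meet, had the lowest log2 difference over whole samples, -1.61. Its levels were 118, 129 and 119 CPM in Dram2 wt/wt against 68.9, 31.6 and 28.4 CPM in Dram2 ko/ko, which do not overlap. Rps20, at the head of the small subunit, followed at -1.52, then Rpl22l1 at -1.40 and Rpl41, the smallest ribosomal protein, at -1.22. The adjusted p was 0.0831 for Rpl30 and 0.0798 for the other 3 (voom-limma). At the upper end stood Rpl10l at 0.50, on 200 UMIs, Rps2 at 0.47 and Rplp0, the base of the stalk, at 0.30. Rps2 was at 50.3, 40.1 and 45.8 CPM in Dram2 wt/wt against 78.3, 72.3 and 42.3 CPM in Dram2 ko/ko. Replicates 1 and 2 of Dram2 ko/ko were above every Dram2 wt/wt sample, and replicate 3, of batch 2, was among them.

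The most calls by voom-limma came from Fibroblast proliferating cells, the second most numerous type with 6465 cells. Here 8 of 81 members were called, all lower in Dram2 ko/ko, against 0.624% of 18113 genes. They were Rps20, Rpl22l1, Rpl41, Rpl30, Rplp2, Rpl35a, Rpl35 and Rpl39. At an unadjusted p under 0.05, 35 members were lower and 2 were higher, against 5.53% and 1.26% of all genes. Rps20 was the only one of the small subunit among the 8, and their coding sequences are short, from 75 bases in Rpl41 to 369 in Rpl35. On GRCm38 (GENCODE M21), Rps20 lies at chr4:3831334-3835665 (-), Rpl30 at chr15:34440505-34443640 (-), Rpl22l1 at chr3:28805436-28807424 (+) and Rpl41 at chr10:128548114-128549305 (-). Of the last 400 bases of their transcripts, 37.8%, 38.6%, 45.1% and 34.0% of words occur in another gene, so their counts are uncertain. The calls were not kept in every fit with 1 sample fewer. With replicate 2 or 3 of Dram2 wt/wt left out, or replicate 2 of Dram2 ko/ko, voom-limma called 0 members and 0% of all genes. The members' median log2 difference was -0.29, -0.30 and -0.23 in these 3 fits, against -0.27 in all samples. Leaving out replicate 1 of Dram2 wt/wt gave 6 calls (0.431% of all genes), and leaving out replicates 1 and 3 of Dram2 ko/ko, each in turn, gave 23 (1.56%) and 12 (1.21%).

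Rps20 was at 721, 808 and 815 CPM in Dram2 wt/wt against 378, 236 and 201 CPM in Dram2 ko/ko Fibroblast proliferating cells. All Dram2 ko/ko samples lay under every Dram2 wt/wt sample, with replicate 1 the nearest, and the log2 difference was -1.58 (SE 0.194, adjusted p 0.0297, voom-limma). Rpl22l1 was at 57.1, 63.4 and 71.8 CPM against 30.7, 22.7 and 15.6 CPM. It fell by 1.53 on the log2 scale (SE 0.197, adjusted p 0.0297), again without overlap. Its share of the Rpl22 and Rpl22l1 pair went from a mean of 5.77% in Dram2 wt/wt to one of 2.96% in Dram2 ko/ko. In the same cells the parent Rpl22 was at 999.8, 1156 and 1000.3 CPM against 869, 585 and 883 CPM, without overlap, a log2 difference of -0.46 that was not called (adjusted p 0.362, voom-limma).

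Rpl41 was at 187, 211 and 202 CPM against 105, 76.5 and 73.1 CPM in these cells, a fall by 1.26 on the log2 scale (SE 0.127, adjusted p 0.0297). Rpl30 was at 116, 128 and 116 CPM against 67.4, 29.9 and 29.0 CPM, with a log2 difference of -1.64 (SE 0.258, adjusted p 0.0340). In both, replicate 1 of Dram2 ko/ko was the highest of its genotype and lay below every Dram2 wt/wt sample. Rplp2, the partner of Rplp1 in the stalk, was at 135, 140 and 143 CPM against 92.1, 62.8 and 55.4 CPM, a fall by 1.03 on the log2 scale (adjusted p 0.0328). The other proteins of the stalk did not pass the test in these cells, where Rplp1 had a log2 difference of -0.11 (adjusted p 0.973, voom-limma) and Rplp0 one of 0.24 (adjusted p 0.821).

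Rpl35a, a gene known from Diamond-Blackfan anaemia, had a log2 difference of -1.27 and Rpl35, at the exit tunnel, one of -0.94 (adjusted p 0.0328 for both, voom-limma). Rpl39, also at the exit tunnel, was at 85.6, 133 and 117 CPM against 68.0, 42.2 and 38.4 CPM, a fall by 1.21 on the log2 scale (adjusted p 0.0472). Its groups do not overlap, but replicate 1 of Dram2 wt/wt and replicate 1 of Dram2 ko/ko lie close. The testis paralog Rpl39l was at 10.8, 21.3 and 15.8 CPM against 8.09, 8.34 and 25.1 CPM, where replicate 3 of Dram2 ko/ko was the highest of all 6 samples. It made up 39.5% of the Rpl39 and Rpl39l pair in that sample and 10.6% to 16.5% in the other 5. As few cells held UMIs of Rpl39l, these values need not be those of most cells.

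**Figure D3:**
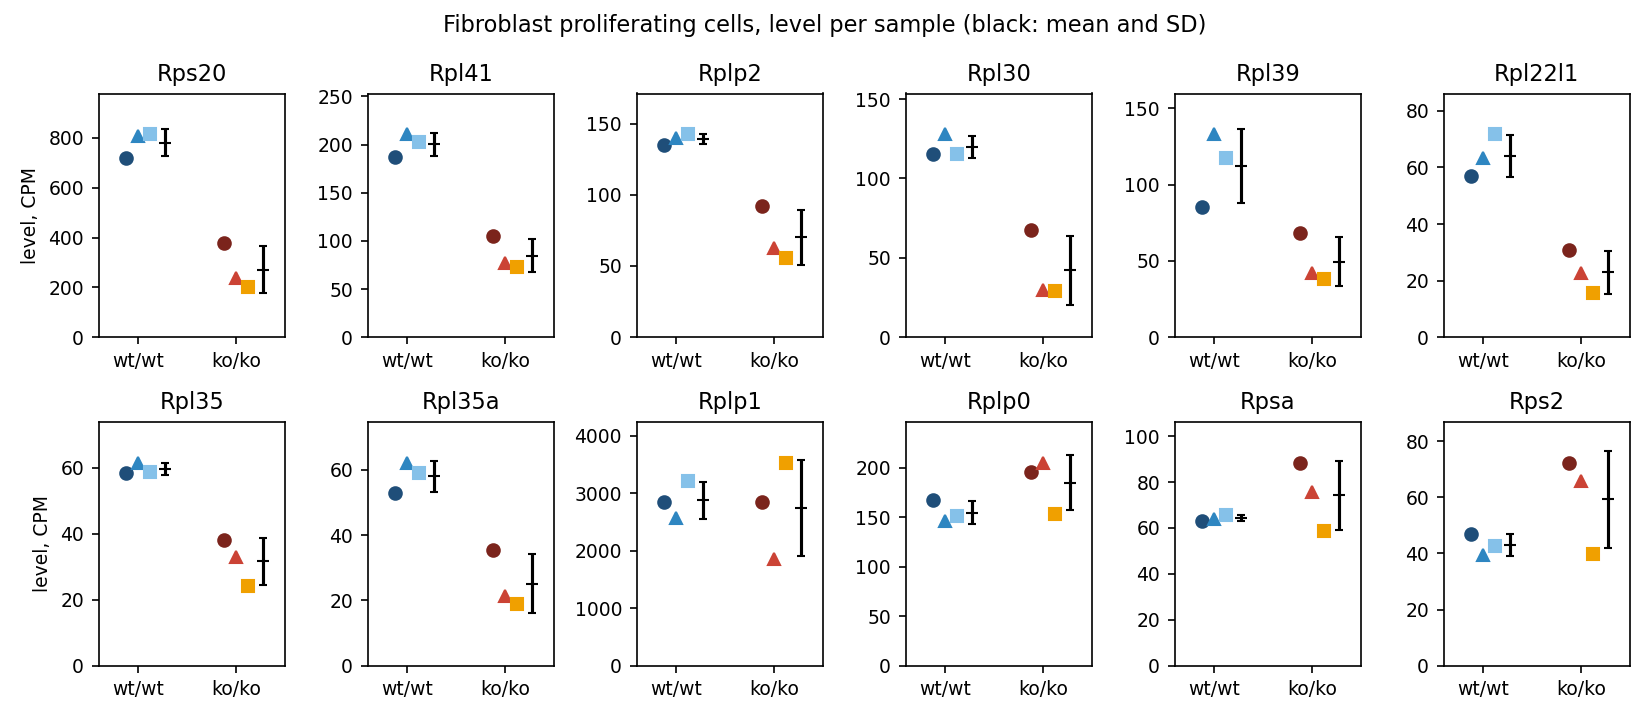
Level (CPM, from 0) of 12 members in Fibroblast proliferating cells by genotype, 1 symbol per sample, with the mean and SD in black. In the 8 called members all samples of Dram2 ko/ko lie below those of Dram2 wt/wt, such as 201 to 378 CPM against 721 to 815 CPM for Rps20, and the groups of Rplp1, Rplp0, Rpsa and Rps2 are shown beside them.

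In other cell types fewer members were called. In Fibroblast 2 cells, 3 of 80 members were called, Rps20 (-1.44, adjusted p 0.0435), Rpl41 (-1.31, adjusted p 0.0435) and Rpl22l1 (-1.17, adjusted p 0.0490), against 0.222% of 14882 genes (voom-limma). In cells annotated Pericyte, Rps20 alone of 75 members was called (-1.58, adjusted p 0.0276), against 0.0118% of 8454 genes. In Myeloid cells, with 2 samples against 2, Rps20 alone of 68 members was called (-1.83, adjusted p 0.0274), against 0.0296% of 6747 genes. Rps20 was at 687 and 631 CPM in Dram2 wt/wt Myeloid cells against 176 and 184 CPM in those of Dram2 ko/ko. No member was called in Fibroblast (0.00503% of 19886 genes called), Fibroblast-like (0% of 7218), RPE (0% of 12333) or Endothelial cells (0% of 6682) by voom-limma, while 34, 22, 24 and 17 were lower at an unadjusted p under 0.05, against 5.76%, 4.14%, 4.11% and 3.29% of all genes. DESeq2 called 17, 4, 4 and 2 in these, against 1.61%, 0.415%, 0.166% and 0.195% of all genes, and the edgeR quasi-likelihood test 0 in each, against at most 0.00503%. The 3 calls in Fibroblast 2 cells were lost without any one sample of Dram2 wt/wt or without Dram2 ko/ko replicate 2, and the call in cells annotated Pericyte was lost in the same fits and without Dram2 ko/ko replicate 3. In these fits at most 0.00631% of all genes were called. With batch as a covariate Rps20 was not called in cells annotated Pericyte (log2 difference -1.45) or Myeloid cells (-1.88), and the edgeR quasi-likelihood test called 0 members in cells annotated Pericyte, against 0%. Whether the genotype difference itself differed between cell types was not tested.

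In each cell type, members whose Dram2 ko/ko samples all lay below the Dram2 wt/wt samples outnumbered those with the reverse order. In Fibroblast cells 32 of 81 members lay below, against 7.01% of all genes tested, and 3 above, against 4.57%. In Fibroblast 2 cells 32 of 80 lay below (all genes 6.6%) and 2 above (4.81%), and in Fibroblast proliferating cells 32 of 81 below (6.52%) and 3 above (4.76%). These 3 types thus had nearly equal counts, although their calls differed. In Fibroblast-like cells 27 of 79 lay below (6.05%) and 0 above (2.34%), and in RPE cells 22 of 79 below (5.09%) and 2 above (2.48%). Endothelial cells had 13 of 63 below (6.6%) and 1 above (3.94%), and cells annotated Pericyte 16 of 75 below (5.68%) and 5 above (5.04%). In Myeloid cells, with 2 samples against 2, 38 of 68 lay below (19%) and 5 above (14.7%). The members above were thus near or under the share of all genes in each cell type.

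Rps20 had the same order in all 9 comparisons: all samples of Dram2 ko/ko lay below those of Dram2 wt/wt, and the log2 difference ranged from -1.83 in Myeloid cells to -1.43 in Endothelial cells. In RPE cells it was at 574, 751 and 697 CPM against 321, 182 and 210 CPM (log2 difference -1.51, SE 0.230, adjusted p 0.249). In Endothelial cells it was at 342, 461 and 434 CPM against 240, 124 and 110 CPM. The comparisons of whole samples and single types share cells, so they are not separate evidence.

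The direction followed the length of the coding sequence, a pattern chosen after the values were seen. Coding lengths run from 75 bases in Rpl41 to 1257 in Rpl4 with a median of 437. Over whole samples, Spearman's rho between the log2 difference and the coding length was 0.74 across 81 members, and -0.26 across 3518 other protein-coding genes of 50 CPM or more. Over the members it was 0.51 with the transcript length, 0.10 with the level and 0.07 with the shared 3′ percentage. Over the other genes it was -0.23 with the transcript length. Genes are not independent replicates, and no p is given. In the cell types rho ranged from 0.53 in Myeloid to 0.76 in Fibroblast 2 cells and cells annotated Pericyte, and over the other genes from -0.27 in Fibroblast to 0.03 in Myeloid cells.

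**Figure D4:**
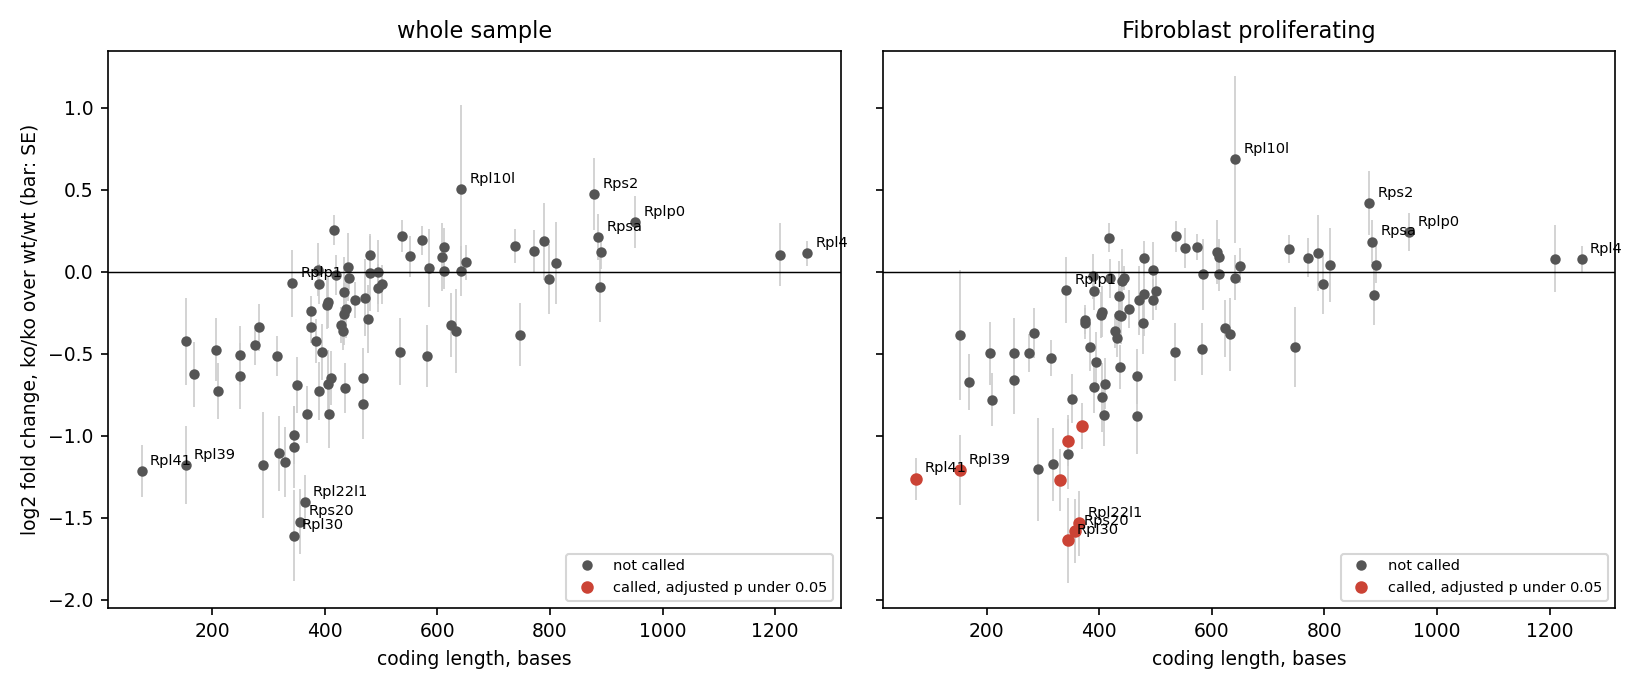
Log2 difference between genotypes (Dram2 ko/ko over Dram2 wt/wt) against coding length in bases for the 81 members tested, in whole samples (left) and Fibroblast proliferating cells (right), with the SE as a bar and called members in red. In whole samples the 11 members with up to 300 coding bases all lie below 0, and 16 of the 21 with over 600 do not.

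In classes of coding length, the 11 members with up to 300 bases had a median log2 difference of -0.63 and all lay below 0, from Rpl41 at -1.22 to Rps27l at -0.34. The 33 members from 300 to 450 bases, which include Rpl30, Rps20, Rpl22l1, Rplp2, Rpl35 and Rpl35a, had a median of -0.42 with 30 below 0. The 16 members from 450 to 600 bases had a median of -0.09, and the 21 members over 600 bases, with Rps2, Rplp0, Rpsa and Rpl5, one of 0.10 with 5 below 0. The median of the longest class was 0.00 without replicate 2 of Dram2 ko/ko, 0.03 without its replicate 1, 0.02 without replicate 3 of Dram2 wt/wt and 0.22 without replicate 3 of Dram2 ko/ko. That of the shortest class was -0.42 without replicate 2 of Dram2 ko/ko. The other protein-coding genes in these classes had medians of -0.01, 0.09, 0.11 and 0.05. Over whole samples, short coding sequences outside the list were thus near 0 in the median. In every cell type, up to 300 bases was also the class of other genes with the lowest median, from -0.02 in Fibroblast to -0.12 in Myeloid cells. In Fibroblast proliferating cells voom-limma called 7 of its 176 genes lower, against 1 of 2808 over 600 bases and 0.624% of all genes.

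By sample, with each member set to its Dram2 wt/wt mean as 100%, the median of the shortest class was 82.7%, 54.7% and 60.1% in the Dram2 ko/ko replicates 1, 2 and 3, and 87.8%, 112% and 102% in the Dram2 wt/wt replicates. The median of the longest class was 115%, 116% and 76.5% in Dram2 ko/ko. By these medians, in which each member counts alike, replicate 3, the sample of batch 2, was low in all classes, and replicates 1 and 2 were low in the shortest and high in the longest class. Summed levels, which rest on the members of high level, gave another order for replicate 3. In the longest class the sum was 9550 CPM in replicate 3 and 9823 CPM in replicate 1, within the 8845 to 10157 CPM of Dram2 wt/wt, and 11273 CPM in replicate 2, above them. From 450 to 600 bases all 3 sums of Dram2 ko/ko, 5769 to 5902 CPM, lay within the 5403 to 6067 CPM of Dram2 wt/wt, and in the shortest class all 3, 2564 to 3806 CPM, lay below the 4358 to 5056 CPM of Dram2 wt/wt. Without replicate 3, rho between log2 difference and coding length over whole samples was 0.81 (82 members), and without replicate 2 it was 0.59 (81 members). Without replicate 3, voom-limma called 7 members over whole samples, 6 lower and 1 higher, against 0.507% of all genes, and 12 in Fibroblast proliferating cells, 11 lower and 1 higher, against 1.21%. Within batch 1 the fall of Rps20 in Fibroblast proliferating cells was 1.37 on the log2 scale.

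**Figure D5:**
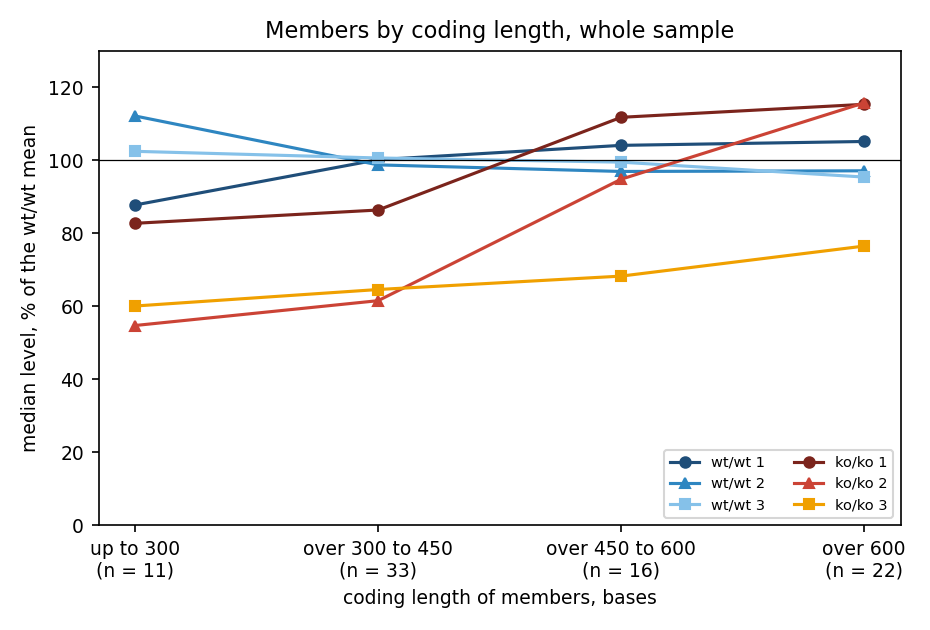
Median level of members in 4 classes of coding length, as percent of the Dram2 wt/wt mean, 1 line per sample (all 82 members, Rpl3l among them). Replicates 1 and 2 of Dram2 ko/ko are low in the short classes (82.7% and 54.7%) and high in the longest (115% and 116%), and the median of replicate 3 of Dram2 ko/ko is low in every class (76.5% in the longest).

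Among the members fixed for their roles, Rpl5 and Rpl11, which bind Mdm2 together when ribosome assembly fails, had log2 differences of 0.12 (adjusted p 0.920) and -0.49 (adjusted p 0.684, voom-limma). Rpl11 was at 24.9, 24.3 and 25.4 CPM in Dram2 wt/wt against 23.7, 19.1 and 12.1 CPM in Dram2 ko/ko, without overlap. Rpsa, the laminin receptor of the small subunit, was at 61.6, 61.8 and 65.7 CPM against 88.1, 72.9 and 58.1 CPM, and Rps6 at 5.95, 5.30 and 5.80 CPM against 5.55, 4.52 and 3.22 CPM. In Rpsa and Rps6 the groups overlap, and in both the lowest value is that of replicate 3 of Dram2 ko/ko.

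Other genes of the pathway were read from the same tables. Over whole samples voom-limma and the edgeR quasi-likelihood test called 0 genes of the 7 lists that follow, and DESeq2 called 2 of the first and 3 of the last list, all lower, against 1.74% of all genes. Of the 5 ribosomal protein genes that the naming rule leaves out, 3 were lower at an unadjusted p under 0.05, among them Rpl36al, a copy of the large subunit gene Rpl36a, at -1.47 and Fau, a fusion of a ubiquitin-like and a small subunit protein, at -0.67. Of these 5 genes voom-limma called 2 lower in Fibroblast proliferating cells, against 0.624% of all genes, and 2 in Fibroblast 2 cells, against 0.222%. Among them was Rpl36al in Fibroblast proliferating cells at -1.54 (adjusted p 0.0328, voom-limma). With replicate 2 or 3 of Dram2 wt/wt left out, or replicate 2 of Dram2 ko/ko, 0% of all genes were called in these cells. The median was -0.04 over 5 elongation factors, 0.09 over 13 other TOP transcripts, 0.00 over 8 regulators such as Larp1 and Mtor, 0.07 over 10 RNA polymerase I genes, 0.08 over 17 assembly factors and 0.12 over 78 mitochondrial ribosomal proteins. In these lists 1, 2, 0, 0, 0 and 9 genes were lower and 3 mitochondrial ones higher at an unadjusted p under 0.05, against the same 5.67% and 1.34% of all genes. Eef1a1, the abundant elongation factor, was at -0.45 and Tpt1, a TOP transcript, at -0.80.

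Pseudogenes of the members had the same direction. Of 416 pseudogenes tested over whole samples, 156 were lower and 1 was higher at an unadjusted p under 0.05, against 5.67% and 1.34% of all genes, with a median log2 difference of -0.44. Voom-limma and the edgeR quasi-likelihood test called 0 of them and DESeq2 called 70, all lower, against 1.74% of all genes. In Fibroblast proliferating cells voom-limma called 28 of 358 lower, against 0.624%. With replicate 2 or 3 of Dram2 wt/wt left out, or replicate 2 of Dram2 ko/ko, it called 0% of all genes in these cells. Over whole samples the summed share of the pseudogenes was 0.886% ± 0.0941 of UMIs in Dram2 wt/wt against 0.581% ± 0.175 in Dram2 ko/ko (n = 3 each), without overlap. Since reads of a member and its pseudogene can be near identical, their counts are not independent of the members', and the part of either in the other was not tested.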

How the data were processed

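Single-cell libraries of 6 samples were counted by the authors with Cell Ranger 3.1.0 on GRCm38 per the submitters' processing notes, and the deposited table holds raw UMI counts per gene and cell (52636 genes, 25428 cells), not normalised. The deposited annotation gave each cell's sample, cell type and fibroblast sub-cluster, which the authors had obtained with Seurat from clusters of integrated counts. The deposited UMAP coordinates of each cell, a score made by the authors, were not used. All cells were used and no doublet caller was run. Cells are named by running numbers, so barcodes shared between libraries were not counted. No filter on cells is stated in the sources used here. Genes without a symbol held 0.0556% of UMIs and stayed in the totals.

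Counts were summed per sample, and per cell type or sub-cluster with 10 or more cells. In Myeloid cells this left 2 samples against 2. Levels are CPM, counts scaled by the total of their sum. After filterByExpr and TMM scaling in edgeR 4.0.16, genotypes were compared by voom-limma in limma 3.58.1 under R 4.3.3, with no covariate, over all genes. A call is a Benjamini-Hochberg adjusted p under 0.05. The study names voom-limma on sums per sample and cell type. The script was tested on simulated data. Alternatives were DESeq2 1.42.0, the edgeR quasi-likelihood test, other size factors, no filter on low counts, a replicate block, batch as a covariate, a cell filter (500 or more genes, at most 20% mitochondrial UMIs), no pseudogenes and each sample left out. The shared 3′ percentage is the part of the words of 31 bases within the final 400 bases of a gene's transcripts (GENCODE M21, GRCm38) found in another gene on either strand. A pseudogene was assigned to a member by its symbol or by 50% or more of its words. Coding length and transcript length are medians over protein-coding transcripts.

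Genes were named by rule: stalk proteins, Rpsa, Rps6, Rpl5, Rpl11, Dram2 and paralogs with parents, every member called, the 5 largest and 3 smallest ratios over cell types, the 3 highest and lowest levels and log2 differences, and the 5 genes most alike. Rps4l, in the rule, was no member, and some genes within the rule or the lists are not reported here. The members and gene lists were chosen with earlier results of these data known. Fits leaving out replicates, members under 5% shared sequence and members plus pseudogenes were planned, and settings for levels over cell types were added after the data were seen.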

Additional observations from a re-analysis of the deposited data

How the results depend on the processing

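Members called between genotypes depended on the test, the filter and single samples. Against 0, 0, 3, 8, 0, 0, 0, 1 and 1 called in whole samples, Fibroblast, Fibroblast 2, Fibroblast proliferating, Fibroblast-like, RPE, Endothelial, Pericyte and Myeloid cells, DESeq2 called 16, 17, 12, 21, 4, 4, 2, 4 and 1, against 1.74%, 1.61%, 1.13%, 1.88%, 0.415%, 0.166%, 0.195%, 0.177% and 0.14% of all genes. Without a filter on low counts, 9, 7, 13, 4 and 6 were called in Fibroblast, Fibroblast 2, Fibroblast proliferating, Fibroblast-like and Myeloid cells, against 0.426%, 0.244%, 0.609%, 0.0937% and 0.328%. With batch as a covariate 5 were called in whole samples (0.523% of all genes), 4 in Fibroblast (0.437%) and 0 in Pericyte (0%) and Myeloid cells (0.0445%). The edgeR quasi-likelihood test called 6 in Fibroblast proliferating (0.342%), 2 in Fibroblast 2 (0.0739%) and 0 in Pericyte cells (0%). With library size alone 7 and 2 were called in Fibroblast proliferating and Fibroblast 2 cells (0.447% and 0.0538%), and without pseudogenes 7 and 3 (0.198% and 0.142%), while RLE factors and the cell filter moved no count. Leaving out 1 sample at a time gave 0 to 19, 0 to 21, 0 to 21, 0 to 23, 0 to 14, 0 to 0, 0 to 1, 0 to 5 and 1 to 5, against shares of all genes of up to 1.05%, 1.15%, 0.838%, 1.56%, 1.14%, 0%, 0.0422%, 0.233% and 1.04%. In Myeloid cells each such fit has an arm of 1 sample, which is assumed to vary like the other arm, so its range says little on stability. Of 13 calls of named genes in a comparison, 4 were lost by edgeR (Rpl30 and Rpl39 in Fibroblast proliferating, Rpl22l1 in Fibroblast 2 and Rps20 in Pericyte cells), 2 with library size alone (Rpl39 and Rpl22l1 in these types) and 1 without pseudogenes (Rpl39), 12 were lost on leaving out Dram2 ko/ko replicate 2, and 12, 12 and 7 on leaving out replicates 2, 3 and 1 of Dram2 wt/wt, while 12 were kept without Dram2 ko/ko replicate 3. Such fits have fewer samples, and none of the 13 log2 differences changed sign.

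Replicate numbers are shared by the genotypes, but deviations of same-numbered samples correlated at 0.0206, -0.590 and 0.0340, so the numbers were not taken as pairs. With the replicate block 0 members were called in Fibroblast 2, Fibroblast proliferating and Pericyte cells, against 0.0134%, 0% and 0% of all genes. In Myeloid cells 6 were called (0.474% of all genes), and 12 of the 13 calls of named genes were lost.

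The difference in the members' share of UMIs (percentage points, main values -0.222, -0.223, -0.174, -0.249, -0.326, -0.348, -0.223, -0.190 and -0.327 in the same order) was 0.0340, 0.0339, 0.0464, 0.0246, 0.0460, 0.0181, 0.0233, 0.0282 and 0.0593 over the 4 members under 5% shared sequence. With pseudogenes added it was -0.527, -0.534, -0.476, -0.548, -0.768, -0.658, -0.466, -0.467 and -0.755. The filter on cells gave -0.195 in Fibroblast-like cells, and the median over cells gave -1.01 in Myeloid cells. Leaving out 1 sample gave -0.282 to -0.140, -0.278 to -0.153, -0.263 to -0.0830, -0.288 to -0.179, -0.487 to -0.141, -0.463 to -0.242, -0.350 to -0.157, -0.308 to -0.107 and -0.452 to -0.203. The cause was not tested. The gap of sub-cluster 5 to sub-cluster 1 was 2.17 to 2.19 percentage points under 3 settings added after the data were seen, against 2.13. Under these settings the gap of Fibroblast-like to RPE cells was 1.56 relative to non-mitochondrial UMIs and 1.84 with the cell filter, against 1.04, and that to Fibroblast cells 1.85 and 2.14, against 1.34.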

Other observations

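In Fibroblast-like cells of 1 sample, the members' share of UMIs moved with mitochondrial transcripts. There, Spearman's rho across cells between the members' share and the mitochondrial share ranged from -0.77 to -0.41 over the 6 samples, and that with the UMI total from 0.29 to 0.53. The cells share a library, the shares share a denominator, and the values are given as a description. The same coefficient with the mitochondrial share was -0.44 to -0.19 in RPE, -0.26 to -0.11 in Fibroblast proliferating, -0.16 to -0.05 in Fibroblast and 0.03 to 0.15 in Fibroblast 2 cells, so the direction was not shared by all types. In Fibroblast 2 cells rho with the UMI total was 0.25 to 0.37, and in RPE cells -0.30 to 0.03.

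Rpl7l1 went against the order of the other members over cell types. It was highest in Fibroblast 2 cells at 214 CPM ± 18.3 and next in Endothelial cells at 174 ± 21.3 (n = 6), where 46 members were at their lowest, and it lay at 115 ± 18.7 in Fibroblast-like cells. It was singled out after its values were seen.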
